A study of Mus musculus with 7 samples.

Results

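Border-associated macrophage genes were examined in RNA sequencing data of sorted microglia from mice with glioma. The group comprised 8 genes, Mrc1, Cd163, Lyve1, Pf4, F13a1, Cbr2, Folr2 and Stab1, taken by symbol from the 24537 genes of the deposited table, and each had a row. All mice were C57BL/6 bearing the implanted 005 glioma, a model of glioblastoma, and were sampled at day 35. The sort kept cells with intermediate CD45 that carried the fractalkine receptor CX3CR1. The 3 libraries of the CD4 depletion + anti-CTLA4 group came from mice given an antibody to the T cell checkpoint receptor CTLA4 together with an antibody that depletes CD4 T cells. The 2 anti-CTLA4 libraries came from mice given the checkpoint antibody alone, and the 2 IgG libraries from mice given control antibody. Age and sex are not analysed here. Whether the replicates of a group were different animals is not stated, so every p-value speaks only to the variation among these libraries, which may be technical. RNA was extracted with Trizol and a column, and libraries were made from ultra-low input and run on a HiSeq2500.

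Border-associated macrophages live in the meninges, the perivascular spaces and the choroid plexus, outside the brain tissue that microglia occupy. Both cell types are long-lived macrophages that need the receptor CSF1R, but border macrophages carry scavenging and endocytic receptors that resting microglia largely lack, and they usually carry more CD45 than the intermediate level of microglia. The 8 genes are commonly used to tell them from microglia. Several are not exclusive to them: Pf4 is also a platelet gene, F13a1 is also made by monocytes, and Stab1 and Lyve1 are also made by sinusoidal or lymphatic endothelium.

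The libraries held 84200000 to 108000000 reads each by the depth implied by the low values, of which 49900000 to 61900000 lay in genes. For the anti-CTLA4 group, the sample numbers in the column names differ from those in the labels, and the table's header assigns them to interferon-gamma receptor knockout libraries. They are therefore called the libraries labelled anti-CTLA4, and every direction in a comparison with them depends on that label. CD4 depletion replicate 1 also stood apart: across the 13028 genes tested it correlated at r = 0.918 and 0.935 with the other CD4 depletion libraries, which correlated at 0.975 with each other (genes are not independent replicates). Ddx3y, a Y-linked gene, read 4.88, 3.24 and 2.52 FPKM in the CD4 depletion libraries, 0.6 and 0.149 FPKM in those labelled anti-CTLA4, and 1.21 and 0.576 FPKM in IgG. In comparisons with the CD4 depletion group, sex and treatment therefore cannot be told apart. The libraries labelled anti-CTLA4 and IgG overlapped in Ddx3y, and a part of sex in their differences was not tested. The sort markers were present in every library: Cx3cr1 ranged over 211 to 752 FPKM and Ptprc, which encodes CD45, over 12.4 to 39.8 FPKM.

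The 8 genes were low beside microglial genes, and most of them differed severalfold between libraries of the same treatment. Summed over the 8 genes, FPKM (fragments per kilobase of transcript, at equal sequencing depth) came to 190.1, 22.4 and 27.8 in the CD4 depletion libraries, 59.3 and 33.8 in the libraries labelled anti-CTLA4, and 14.0 and 20.1 in the IgG libraries. The first CD4 depletion library was far above every other library, while the other CD4 depletion libraries lay between IgG and anti-CTLA4. Without Stab1 the sums were 165, 8.57 and 11.5 FPKM under CD4 depletion, 37.9 and 14.0 under anti-CTLA4, and 4.60 and 10.8 under IgG. In bulk samples, fewer cells of a type and less RNA per cell cannot be told apart.

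**Figure D1:**
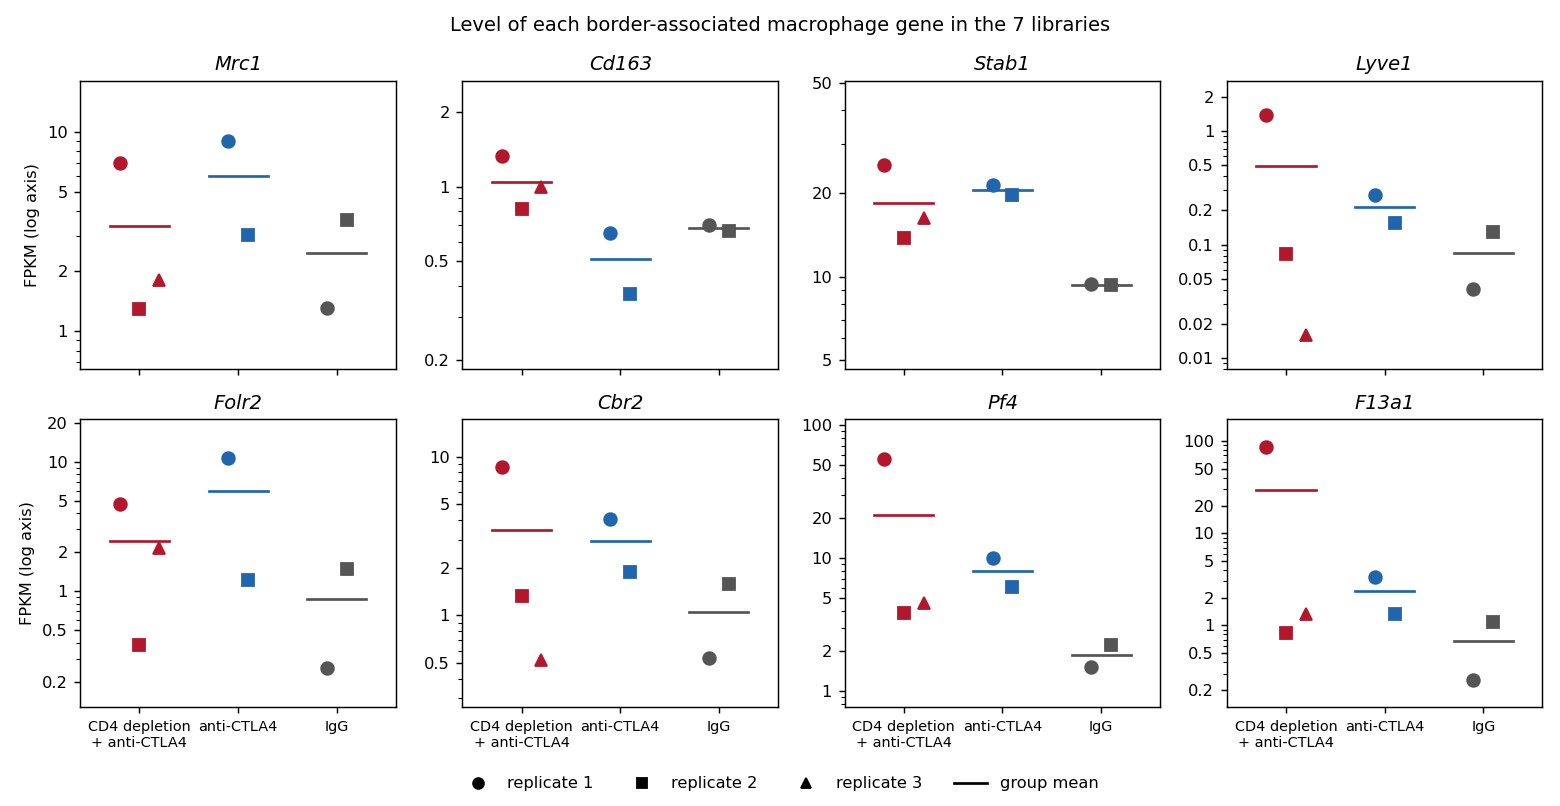
FPKM of each of the 8 genes (log axis) in the 7 libraries by group; symbols mark replicates and lines the group means. CD4 depletion replicate 1 was the highest library for 6 genes and reached 86.3 FPKM for F13a1, while both IgG libraries were at the bottom for Stab1 and Pf4.

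Among the endocytic receptors, Stab1 was the most abundant of the 8 genes in 6 of the 7 libraries. It encodes stabilin-1, a large scavenger receptor for modified lipoproteins and matrix fragments (chr14:31139017-31168641, minus strand, build mm10, as are all positions given here). Stab1 had 25.4, 13.8 and 16.3 FPKM in the CD4 depletion libraries, 21.3 and 19.8 FPKM in the libraries labelled anti-CTLA4, and 9.42 and 9.31 FPKM in IgG. Every library of either antibody group was above both IgG libraries, and the groups without CD4 depletion were tight. The values rested on 6206 to 21619 implied reads per library. The 3′ end of Stab1 overlaps that of Nt5dc2 on the other strand, and reads were counted without regard to strand. Nt5dc2 itself had 93.1, 78.7 and 74.0 FPKM under CD4 depletion, 35.6 and 17.7 FPKM under anti-CTLA4, and 81.4 and 71.1 FPKM under IgG, an order unlike that of Stab1.

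Mrc1 encodes the mannose receptor, which takes up glycoproteins with exposed mannose (chr2:14229414-14332023, plus strand). It had 7.01, 1.29 and 1.82 FPKM in the CD4 depletion libraries, 8.98 and 3.05 FPKM in those labelled anti-CTLA4, and 1.31 and 3.63 FPKM in IgG. The highest library was anti-CTLA4 replicate 1, the lowest were CD4 depletion replicate 2 and IgG replicate 1, and the groups overlapped in all 3 comparisons. The microRNA gene Mir511 lies within Mrc1 on the same strand, and its row was at 0 in every library but IgG replicate 2, where it was 0.152 FPKM.

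Cd163 encodes the scavenger receptor for complexes of haemoglobin and haptoglobin (chr6:124304651-124330527, plus strand). Its values were 1.33, 0.813 and 1.00 FPKM in the CD4 depletion libraries, 0.651 and 0.369 FPKM in those labelled anti-CTLA4, and 0.703 and 0.661 FPKM in IgG. Unlike the other 7 genes, Cd163 was lowest in the libraries labelled anti-CTLA4, and its CD4 depletion libraries did not overlap with either other group. It reached the testing minimum, 1 FPKM in at least 2 libraries, only through CD4 depletion replicates 1 and 3. These levels rested on 146 to 627 implied reads.

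Lyve1 encodes a hyaluronan receptor shared by lymphatic endothelium and a subset of border macrophages (chr7:110850607-110862953, minus strand). It had 1.38, 0.083 and 0.016 FPKM in the CD4 depletion libraries, 0.272 and 0.154 FPKM in those labelled anti-CTLA4, and 0.041 and 0.128 FPKM in IgG. Replicate 1 of CD4 depletion held 386 implied reads and the other 6 libraries 4 to 66, so Lyve1 did not reach the testing minimum of 1 FPKM in at least 2 libraries. With no minimum, its log2 fold changes were 0.16 to 0.35 over the 3 comparisons (limma adjusted p = 0.7605 to 0.8308). The 13 lymphatic and liver-type endothelial markers with a row summed to 10.4, 11.2 and 12.9 FPKM under CD4 depletion. Under anti-CTLA4 they summed to 11.1 and 10.8 FPKM, and under IgG to 15.3 and 9.14 FPKM. Of the 12 above 0 in any library, 3 were highest in CD4 depletion replicate 1. The lymphatic regulator Prox1 ranged over 1.07 to 3.83 FPKM, lowest in that library. Stab2 and Clec4g, both of sinusoidal endothelium, were at or below 0.107 FPKM in all libraries. The part of endothelium in the level of Lyve1 was not tested.

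Folr2 encodes folate receptor beta, a surface protein of resident tissue macrophages (chr7:101839988-101845331, minus strand). Its level was 4.75, 0.382 and 2.17 FPKM in the CD4 depletion libraries, 10.6 and 1.22 FPKM in those labelled anti-CTLA4, and 0.253 and 1.49 FPKM in IgG. The libraries labelled anti-CTLA4 differed from each other 8.74-fold, the widest gap within that group among the 8 genes, and all groups overlapped. An antisense gene without a row, Gm10602, overlaps the 3′ end of Folr2, so its reads could be counted here.

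Cbr2 encodes carbonyl reductase 2, a mitochondrial enzyme that reduces carbonyl compounds (chr11:120729485-120732021, minus strand). It had 8.59, 1.32 and 0.527 FPKM in the CD4 depletion libraries, 4.04 and 1.87 FPKM in those labelled anti-CTLA4, and 0.538 and 1.58 FPKM in IgG. Replicate 3 of CD4 depletion was the lowest library and replicate 1 the highest, 16.3-fold apart, so the CD4 depletion group spanned both other groups.

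The members with secreted products were Pf4 and F13a1. Pf4 encodes platelet factor 4, a chemokine that binds heparin (chr5:90772435-90773383, plus strand). Pf4 had 55.3, 3.85 and 4.62 FPKM in the CD4 depletion libraries, 9.95 and 6.05 FPKM in those labelled anti-CTLA4, and 1.502 and 2.222 FPKM in IgG. Both IgG libraries were below the other 5, and CD4 depletion replicate 1 was 5.56-fold above the next highest library. The mean was 21.3 ± 29.5 FPKM under CD4 depletion (SD, n = 3), 7.998 ± 2.76 FPKM under anti-CTLA4 and 1.86 ± 0.509 FPKM under IgG (SD, n = 2 each).

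F13a1 encodes the A subunit of coagulation factor XIII, a transglutaminase that cross-links fibrin (chr13:36867178-37049213, minus strand). It had 86.3, 0.822 and 1.32 FPKM in the CD4 depletion libraries, 3.39 and 1.32 FPKM in those labelled anti-CTLA4, and 0.257 and 1.09 FPKM in IgG. That first CD4 depletion library held 35864 implied reads, against 84 to 1223 in the other 6 libraries, and its level was 65.3-fold that of the higher of the other CD4 depletion libraries. On the scale log2(FPKM + 1), F13a1 in that library exceeded the highest other library by 4.31, rank 5 of the 13028 genes tested, and Pf4 by 2.36, rank 45. The antisense genes Gm49144 and Gm30489 overlap F13a1 and have no row, so reads from them cannot be told apart from F13a1.

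To print sequence before the start, Stab1 was chosen as the gene with a difference past the threshold. Pf4 and F13a1 were chosen as the tested members furthest above the other libraries in CD4 depletion replicate 1, where 6 of the 8 genes peaked. The 250 bases before the annotated start are printed for these 3 genes. They are RefSeq sequences of build GRCm38.p6, on the strand of the gene from 5′ to 3′, at chr14:31168642-31168891 (minus strand), chr5:90772185-90772434 (plus strand) and chr13:37049214-37049463 (minus strand). Capitals mark matches on either strand to TGCTGA, a core of the sites bound by the factor MAF, or to GAGGAA, a core of sites bound by PU.1.
Stab1: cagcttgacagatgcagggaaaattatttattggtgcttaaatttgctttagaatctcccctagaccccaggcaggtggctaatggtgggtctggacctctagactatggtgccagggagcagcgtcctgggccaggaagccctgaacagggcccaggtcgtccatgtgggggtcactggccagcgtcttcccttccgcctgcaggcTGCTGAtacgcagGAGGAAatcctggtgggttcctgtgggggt
Pf4: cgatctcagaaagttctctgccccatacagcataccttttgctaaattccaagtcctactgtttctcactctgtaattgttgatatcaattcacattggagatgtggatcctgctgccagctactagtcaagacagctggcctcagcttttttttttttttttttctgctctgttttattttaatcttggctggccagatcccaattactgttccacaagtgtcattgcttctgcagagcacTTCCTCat
F13a1: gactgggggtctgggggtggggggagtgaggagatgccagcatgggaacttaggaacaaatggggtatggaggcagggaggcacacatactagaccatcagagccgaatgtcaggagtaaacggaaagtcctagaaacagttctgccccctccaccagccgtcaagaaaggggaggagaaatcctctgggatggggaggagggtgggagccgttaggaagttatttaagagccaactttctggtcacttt
Stab1 held TGCTGA at 43 to 38 bases and GAGGAA at 30 to 25 bases before its start. Pf4 held GAGGAA on the reverse strand at 8 to 3 bases before its start, and F13a1 held no match. Windows were matched for 7 of the 8 genes, all but Lyve1. TGCTGA lay in 2 of the 7, Folr2 and Stab1, beside 16.1% of 32851 windows of this length. GAGGAA lay in 4 of the 7, Mrc1, Pf4, Cbr2 and Stab1, beside 23.3% of all windows. The palindromic site type of the glucocorticoid receptor lay in 0 of the 7, beside 0.387% of all windows. None of these motifs overlaps another in the windows shown, and a match is a description of letters only.

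Within each treatment most of the 8 genes were highest in the same library. CD4 depletion replicate 1 was above replicates 2 and 3 for 8 of 8 genes each, with a median difference of 1.93 and 1.37 on the log2(FPKM + 1) scale, while 32.2% and 35.5% of all tested genes were higher there. Anti-CTLA4 replicate 1 was above replicate 2 for 8 of 8 genes (median 0.73), beside 55.9% of tested genes. IgG replicate 2 was above IgG replicate 1 for 6 of 8 genes (median 0.55), beside 52.9% of tested genes, the exceptions being Cd163 and Stab1. These replicates have no order, and the counts are descriptions without a test. Over the 7 libraries, 6 of the 8 genes were highest in CD4 depletion replicate 1, which held the maximum of 11.7% of tested genes. Mrc1 and Folr2 were highest in anti-CTLA4 replicate 1, which held that of 7.5%.

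The first comparison asked how the checkpoint antibody alone was related to these genes. Stab1 was higher in the libraries labelled anti-CTLA4 and was the only member past the threshold, at 20.5 ± 1.11 FPKM under anti-CTLA4 against 9.36 ± 0.0785 FPKM under IgG (SD, n = 2 each). The fitted difference was 1.05 (SE 0.26, adjusted p = 0.0213 by limma) on the scale log2(FPKM + 1), which understates changes of low genes. Thus 1 of the 7 tested genes was higher and 0 were lower, where 38.0% of all tested genes passed, 9.29% higher and 28.8% lower. At an unadjusted p under 0.05 the count was also 1 of 7, beside 50.2% of all tested genes. The call did not hold when any of the libraries labelled anti-CTLA4 or IgG was left out (adjusted p = 0.0760 to 0.0968), or when each library was shifted to an equal mean of homeostatic microglia markers (log2 fold change 0.13, adjusted p = 0.813, where the median of all genes was -1.24).

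The other 6 tested genes were not past the threshold in that comparison. Pf4 had a log2 fold change of 1.63 (SE 1.06, adjusted p = 0.250), Folr2 1.52 (SE 0.88, adjusted p = 0.2001), F13a1 0.98 (SE 1.67, adjusted p = 0.659), Mrc1 0.96 (SE 0.68, adjusted p = 0.289) and Cbr2 0.93 (SE 0.80, adjusted p = 0.375), while Cd163 had -0.16 (SE 0.22, adjusted p = 0.577). All groups share their estimate of the spread. Without CD4 depletion replicate 1 Pf4 also passed, with the same fold change of 1.63 (SE 0.26, adjusted p = 0.00401 by limma). That made 2 of 7 genes with Stab1 (adjusted p = 0.00304). Other lists gained calls without that library as well. Homeostatic microglia markers went from 14 to 19 of 30 higher and monocyte markers from 1 to 7 of 17, so the gain was not particular to the members. The libraries labelled anti-CTLA4 did not overlap with IgG and were higher for Stab1, Pf4, F13a1, Cbr2 and the untested Lyve1, 5 of 8 genes. They were lower for Cd163, and 22.8% of tested genes were non-overlapping and higher and 54.1% lower. The median log2 fold change of the 7 genes was 0.98, beside -0.31 for all tested genes. A shift of this size was not particular to them. Homeostatic microglia markers had a median of 0.90, with 14 of 30 higher and 0 lower. Macrophage lineage regulators had 0.94, while scavenger receptors had 0.03.

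The second comparison, CD4 depletion + anti-CTLA4 against anti-CTLA4, asked what the loss of CD4 T cells changed. By limma 0 of the 7 tested genes passed in either direction, where 29.4% of all tested genes did, 22.8% higher and 6.59% lower. At an unadjusted p under 0.05 the count was also 0 of 7, beside 45.3% of all tested genes. Cd163 came nearest, with 1.05 ± 0.261 FPKM under CD4 depletion (SD, n = 3) and 0.510 ± 0.199 FPKM under anti-CTLA4 (SD, n = 2), or 0.44 on the log2 scale (SE 0.20, adjusted p = 0.131). Cd163 was also the only gene whose groups did not overlap, and it was higher under CD4 depletion, as were 44.7% of tested genes by that rule, with 15.7% lower. Without CD4 depletion replicate 1 its log2 fold change was 0.34 (SE 0.20, adjusted p = 0.2146). With equal homeostatic microglia markers, Cd163 passed, at 1.36 (SE 0.40, adjusted p = 0.00787), but this scaling moves all genes alike and their median was then 1.18. Cd163 entered the test only through CD4 depletion replicates 1 and 3, so these values describe it and lend no support to a difference.

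Stab1 had a log2 fold change of -0.19 (SE 0.24, adjusted p = 0.566) in that comparison, Mrc1 -0.77 (SE 0.62, adjusted p = 0.364), Folr2 -0.79 (SE 0.80, adjusted p = 0.467) and Cbr2 -0.23 (SE 0.73, adjusted p = 0.826). Pf4 and F13a1 had 0.39 (SE 0.97, adjusted p = 0.772) and 1.17 (SE 1.52, adjusted p = 0.573), and both changed sign without CD4 depletion replicate 1, to -0.75 (SE 0.26, adjusted p = 0.0543) and -0.64 (SE 0.37, adjusted p = 0.206). The median of the 7 genes was -0.19, beside 0.27 for all tested genes.

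In the third comparison, CD4 depletion + anti-CTLA4 against IgG, limma called 0 of the 7 genes and 0 of all 13028 genes (0.0%), and 851 genes, 6.53%, had an unadjusted p under 0.05. Stab1 was the member among those 851, with 18.5 ± 6.07 FPKM under CD4 depletion (SD, n = 3) and 9.36 ± 0.0785 FPKM under IgG (SD, n = 2), or 0.87 on the log2 scale (SE 0.24, adjusted p = 0.710), and 0.63 without CD4 depletion replicate 1 (SE 0.15, adjusted p = 0.741). The CD4 depletion libraries were higher than IgG without overlap for Stab1, Pf4 and Cd163, 3 of 8 genes, beside 11.0% of tested genes higher and 16.2% lower. Of these, Cd163 entered the test only through libraries of the CD4 depletion group. Pf4 had a log2 fold change of 2.02 (SE 0.97, adjusted p = 0.710) and 0.88 (SE 0.26, adjusted p = 0.825) without CD4 depletion replicate 1. F13a1 had 2.15 (SE 1.52, adjusted p = 0.728) and 0.34 (SE 0.37, adjusted p = 0.954) without that library. The other 4 tested genes lay between 0.19 for Mrc1 and 0.73 for Folr2, with adjusted p of 0.735 to 0.940. The 3 comparisons share libraries, so their values are not independent of each other.

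**Figure D2:**
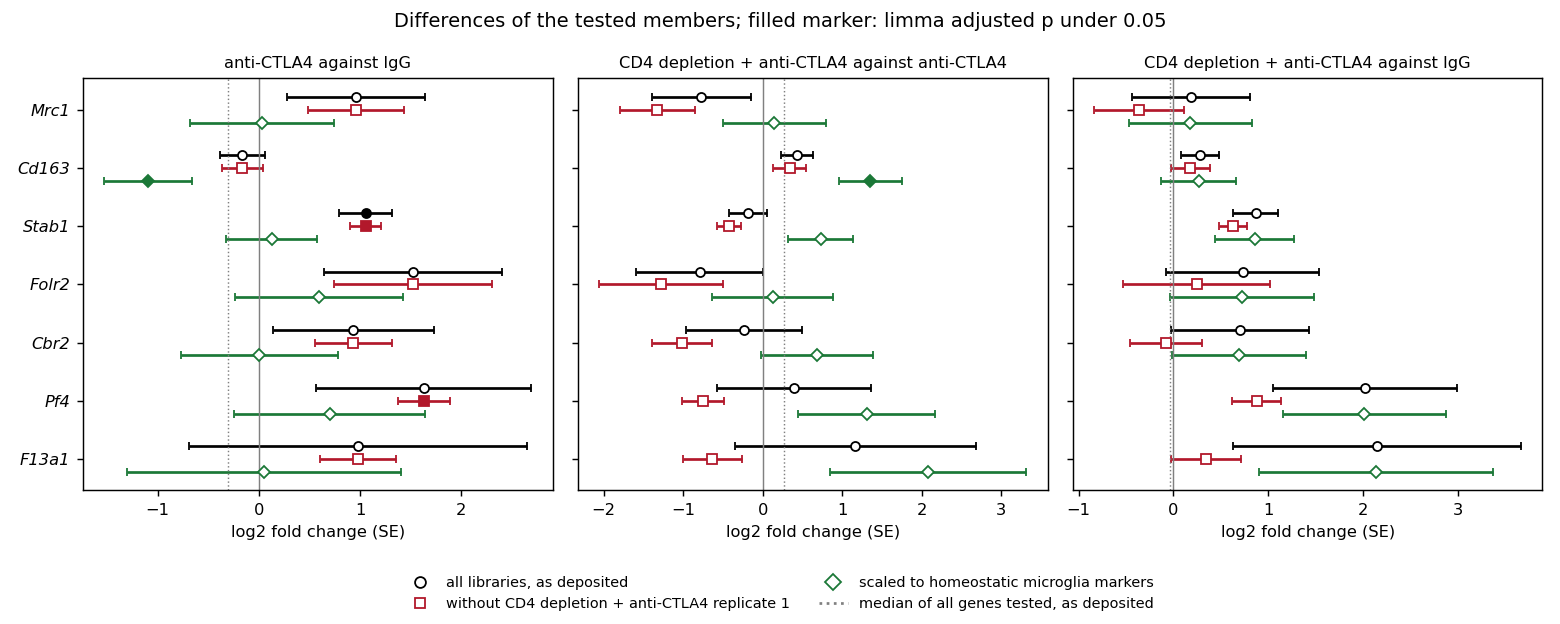
Log2 fold change with its SE (scale log2(FPKM + 1)) of the 7 tested genes in the 3 comparisons, as deposited, without CD4 depletion replicate 1, and after scaling to homeostatic microglia markers; filled symbols have a limma adjusted p under 0.05. As deposited, only Stab1 in anti-CTLA4 against IgG is filled, Pf4 joins it without CD4 depletion replicate 1, and only Cd163 is filled after scaling.

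A further 40 genes of border-associated macrophages were taken from general knowledge of the cell type, and 34 of them were tested. In anti-CTLA4 against IgG, 10 were higher and 3 lower, beside 9.29% and 28.8% of all tested genes. Their median log2 fold change was 1.00, beside -0.31 for all tested genes and 0.90 for the homeostatic microglia markers. With equal homeostatic microglia markers, 1 was higher and 5 lower and the median was 0.075. That scaling moves all genes of a library alike, and most of all tested genes were then called lower. Without CD4 depletion replicate 1 the count was 16 higher and 3 lower. Other lists gained higher calls there too, alternative activation genes from 5 to 9 of 20 and neutrophil markers from 1 to 4 of 9. Some lists did not change, such as carbonyl reductases at 2 of 10. Among the border macrophage genes higher as deposited was Nrp1, a semaphorin and VEGF co-receptor. It had 35.8 and 27.7 FPKM in the libraries labelled anti-CTLA4 and 13.4 and 12.9 FPKM in IgG (log2 fold change 1.20, SE 0.26, limma adjusted p = 0.0139). The complement gene C4b had 115 and 76.4 FPKM under anti-CTLA4 and 34.0 and 42.3 FPKM under IgG (1.29, SE 0.28, adjusted p = 0.0147). Igfbp4, which binds insulin-like growth factors, was lower, with 27.4 and 19.6 FPKM under anti-CTLA4 and 73.0 and 73.6 FPKM under IgG (-1.62, SE 0.28, adjusted p = 0.0105), and so was the endothelin receptor gene Ednrb (-2.34, SE 0.44, adjusted p = 0.0113). Igfbp4 and Ednrb are also expressed by glial and tumour cells.

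For the same 40 genes, CD4 depletion + anti-CTLA4 against anti-CTLA4 gave 4 higher and 5 lower of the 34 tested. All tested genes were higher in 22.8% and lower in 6.59%. The median was -0.29, beside 0.27 for all tested genes. Without CD4 depletion replicate 1 it was 4 higher and 12 lower. In that fit the lower calls also rose from 1 to 5 of 17 monocyte markers and from 4 to 7 of 17 lineage regulators. Those of homeostatic microglia markers went from 13 to 12 of 30. With equal homeostatic microglia markers, 7 border macrophage genes were higher and 1 lower with a median of 0.62. Most of all tested genes were called higher under that scaling. The lipid scavenger receptor gene Cd36 was lower, with 3.56, 2.26 and 2.10 FPKM in the CD4 depletion libraries and 17.4 and 13.6 FPKM in those labelled anti-CTLA4 (log2 fold change -2.19, SE 0.49, adjusted p = 0.0203). Cd38, which encodes an enzyme that consumes NAD, was higher, with 49.4, 25.5 and 43.0 FPKM under CD4 depletion and 9.37 and 2.31 FPKM under anti-CTLA4 (2.73, SE 0.53, adjusted p = 0.0160). Against IgG, limma called 0 of the 34 genes in CD4 depletion + anti-CTLA4. Ms4a7, a membrane protein gene that marks border macrophages, had 14.8, 3.16 and 15.6 FPKM under CD4 depletion, 13.4 and 5.16 FPKM under anti-CTLA4, and 1.62 and 7.17 FPKM under IgG. The most restricted markers on the list, Cd209f, Cd209g, Cd209d, Cd209b and Timd4, were at or below 1.01 FPKM in every library.

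The pathways in which the 8 genes act are given beside the 9.29% of all tested genes that were higher and the 28.8% that were lower in anti-CTLA4 against IgG. After scaling to homeostatic microglia markers, most of all tested genes were called lower in that comparison. Of 23 scavenger receptor genes, 19 were tested, and 4 were higher and 4 lower in anti-CTLA4 against IgG. Cd68, a lysosomal receptor of macrophages, was higher (log2 fold change 1.37, SE 0.24, adjusted p = 0.0107) and Scarb1, the receptor for high-density lipoprotein, lower (-0.80, SE 0.17, adjusted p = 0.0133). With equal homeostatic microglia markers 1 of the 19 was higher and 7 lower. Of 19 tested genes of haem handling, the pathway of Cd163, 2 were higher and 1 lower, with Hmox2, a haem oxygenase, at 63.2 and 60.1 FPKM under anti-CTLA4 and 32.2 and 38.9 FPKM under IgG (0.78, SE 0.16, adjusted p = 0.0130), and after that scaling 0 were higher and 6 lower.

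Genes for hyaluronan, the ligand of Lyve1, were lower under anti-CTLA4 than under IgG in 7 of 10 tested and higher in 0, with a median log2 fold change of -1.58, and after either scaling 6 to 10 were lower and 0 higher. In CD4 depletion + anti-CTLA4 against anti-CTLA4, 8 of the 10 were higher and 0 lower, beside 22.8% and 6.59% of all tested genes. Tnfaip6, a secreted hyaluronan-binding protein, had 9.65, 23.1 and 13.1 FPKM under CD4 depletion, 3.59 and 1.59 FPKM under anti-CTLA4, and 18.7 and 23.0 FPKM under IgG. Bcan and Ncan, hyaluronan-binding proteoglycans of brain tissue, also stood among the genes lower under anti-CTLA4 (log2 fold change -3.02, SE 0.71, adjusted p = 0.0182 for Bcan). Markers of the tumour and of oligodendrocyte precursors were lower in the same libraries, 20 of 21 tested with a median of -3.02. Bcan, Ncan and Vcan stand on both lists, so the counts share 3 genes, and the part of tumour cells in the hyaluronan genes was not tested.

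Folate genes, related to Folr2 through its ligand, gave 2 higher and 7 lower of 19 tested in anti-CTLA4 against IgG, among them Shmt1 (-1.87, SE 0.34, adjusted p = 0.0111), an enzyme that passes carbon units to folate. These shares are near those of all tested genes. The split was 4 higher and 4 lower with median-of-ratios scaling, and 0 higher and 14 lower with equal homeostatic microglia markers. In CD4 depletion + anti-CTLA4 against anti-CTLA4 it was 8 higher and 2 lower, beside 22.8% and 6.59% of all tested genes. Of 12 tested genes of transglutaminases and coagulation, the family and pathway of F13a1, 2 were higher and 2 lower in anti-CTLA4 against IgG. F2r, a thrombin receptor, was lower (-2.85, SE 0.43, adjusted p = 0.00936) and Tfpi, an inhibitor of coagulation, higher (1.01, SE 0.19, adjusted p = 0.0117). Of 10 tested carbonyl reductases, relatives of Cbr2, 2 were higher and 1 lower, with Cbr3 the lower one (-0.96, SE 0.19, adjusted p = 0.0125). After scaling to homeostatic microglia markers, 0 genes of either list were higher and 3 and 6 were lower.

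Monocyte markers, and in part neutrophil markers, were high together with the 8 genes in CD4 depletion replicate 1. Of 21 monocyte markers, 19 were highest in that library, and their summed level was 4123, 849.1 and 1379 FPKM in the CD4 depletion libraries, 1712 and 877 FPKM in those labelled anti-CTLA4, and 892.1 and 949 FPKM in IgG. Ly6c2, a surface protein gene of classical monocytes, had 35.0, 1.46 and 2.73 FPKM under CD4 depletion, 8.43 and 3.38 FPKM under anti-CTLA4, and 0.447 and 0.553 FPKM under IgG. Ccr2, the receptor that brings monocytes to tissue, had 43.1, 1.02 and 1.30 FPKM under CD4 depletion, 2.05 and 1.11 FPKM under anti-CTLA4, and 1.02 and 2.24 FPKM under IgG. Neutrophil markers summed to 591.4, 64.7 and 103.3 FPKM under CD4 depletion, 111.3 and 197 FPKM under anti-CTLA4, and 66.6 and 41.7 FPKM under IgG. Of the 14, 7 were highest in CD4 depletion replicate 1 and 6 in anti-CTLA4 replicate 2. Dendritic cell markers had their lowest sum, 191.7 FPKM, in CD4 depletion replicate 1, although 6 of those 14 were highest there. The part of monocytes or neutrophils in the levels of F13a1, Pf4 and the other members was not tested.

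The 20 platelet and megakaryocyte markers summed to 97.6, 65.0 and 67.6 FPKM under CD4 depletion, 109.8 and 112.4 FPKM under anti-CTLA4, and 47.9 and 52.8 FPKM under IgG, most of it Plek, which other blood cells also express. Both IgG libraries were below the other 5, as for Pf4, but CD4 depletion replicate 1 was not the highest. The part of platelets in the level of Pf4 was not tested. Of the 20 markers, 9 reached 1 FPKM in CD4 depletion replicate 2 and 5 or 6 in each other library. The 7 that entered the test were Ppbp, Gp9, Gp1bb, Itgb3, Pear1, Plek and Vwf. Among the lower ones, the platelet integrin gene Itga2b stayed between 0.415 and 0.855 FPKM. Gp6 and Gata1 were at 0 in 5 and 6 of the 7 libraries, with at most 0.047 FPKM. Ppbp, another platelet chemokine gene that was also highest in CD4 depletion replicate 1, had 4.41, 1.22 and 0.218 FPKM under CD4 depletion, 0.725 and 0.371 FPKM under anti-CTLA4, and 0.110 and 0.232 FPKM under IgG.

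Fibroblast and mural markers summed to 381.6, 121.3 and 76.4 FPKM under CD4 depletion, 544.6 and 282.7 FPKM under anti-CTLA4, and 49.7 and 58.9 FPKM under IgG. Every CD4 depletion and anti-CTLA4 library was above both IgG libraries, as for Pf4. In anti-CTLA4 against IgG, 11 of 19 tested were higher and 1 was lower, beside 9.29% and 28.8% of all tested genes. Dcn, which encodes the matrix proteoglycan decorin, had 28.7, 23.4 and 8.47 FPKM under CD4 depletion, 137 and 73.7 FPKM under anti-CTLA4, and 3.61 and 7.33 FPKM under IgG. Homeostatic microglia markers summed to 12460, 19310 and 19140 FPKM under CD4 depletion, 28630 and 37890 FPKM under anti-CTLA4, and 17590 and 15610 FPKM under IgG. They were lowest in CD4 depletion replicate 1 and, unlike the 8 genes, higher in anti-CTLA4 replicate 2 than in replicate 1. Of 16 tested blood endothelial markers, 9 were higher and 1 lower in anti-CTLA4 against IgG, and of 5 erythroid markers 4 were higher and 0 lower. With equal homeostatic microglia markers the endothelial counts were 1 and 2, and the erythroid counts 4 and 0. The part of border tissue, of blood vessels or of microglial content in the difference of Stab1 was not tested. The scaling given above moves all genes of a library alike, so it does not test this either.

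**Figure D3:**
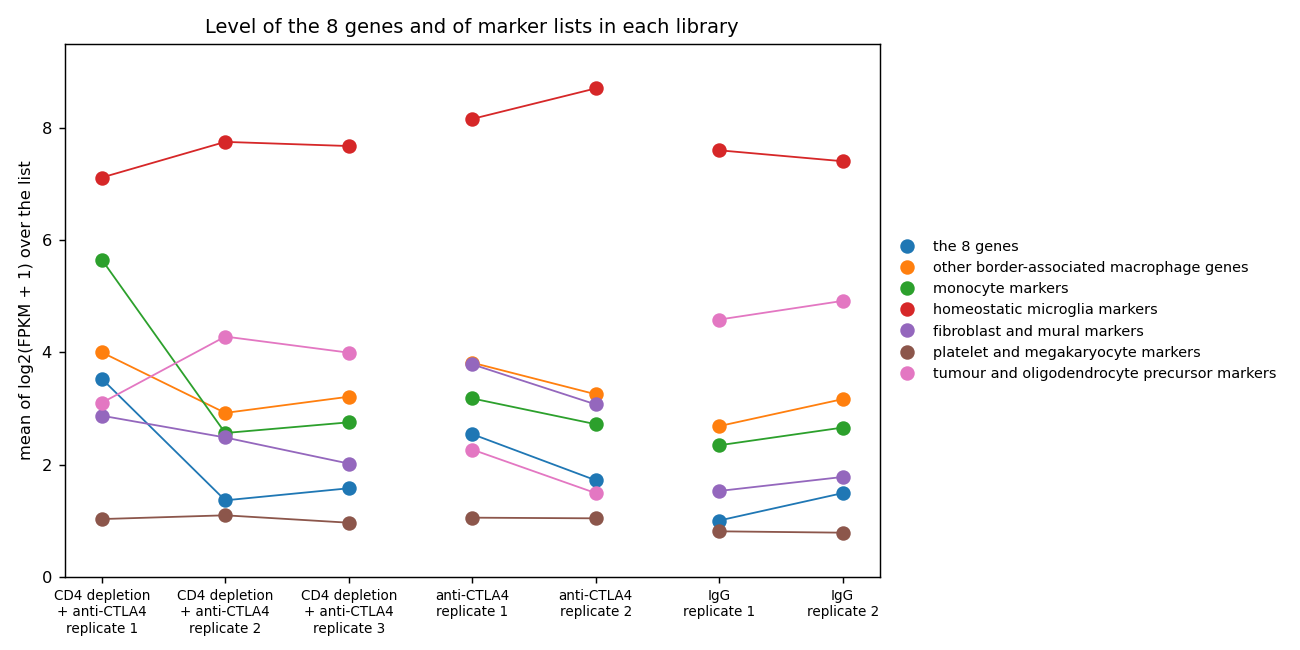
Mean log2(FPKM + 1) of the 8 genes and of 6 marker lists in each library, with lines joining libraries of the same group. The 8 genes had 3.53 in CD4 depletion replicate 1 and 1.00 to 2.54 elsewhere, the monocyte markers had their maximum of 5.66 in the same library, and the homeostatic microglia markers had their minimum of 7.12 there.

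Genes most like each member were found by the root mean square difference of centred log2(FPKM + 1) profiles over the 7 libraries, among 7598 other named genes with a mean of at least 5 FPKM. Pf4 was nearest to Mgp (0.198), a matrix protein gene, to Ly6c2 (0.256) and to Crip1 (0.302), and F13a1 to Adam8 (0.372), Il1r2 (0.387) and Hp (0.436), genes of a membrane protease, the decoy receptor of interleukin-1 and haptoglobin. Adam8 had 47.8, 0.691 and 1.88 FPKM under CD4 depletion, 4.14 and 1.70 FPKM under anti-CTLA4, and 0.494 and 1.11 FPKM under IgG, so 1 library sets this likeness. Folr2 was nearest to Apoc1 (0.401), Apoe (0.451) and Bcl2a1d (0.477). The apolipoprotein gene Apoe had 4162, 603.5 and 2247 FPKM under CD4 depletion, 4417 and 1368 FPKM under anti-CTLA4, and 365.2 and 1246 FPKM under IgG, with the same lowest and highest libraries as Folr2.

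Mrc1 was nearest to Tmem106a (0.260), Slc2a6 (0.262) and Fcgr2b (0.284), the inhibitory receptor for IgG complexes. Cbr2 was nearest to Plin2 (0.256), a coat protein gene of lipid droplets, to Ms4a6d (0.304) and to Gadd45b (0.311). Stab1 was nearest to Galns (0.0926), a lysosomal sulfatase gene, Nupr1 (0.132) and Reep4 (0.137). Cd163 and Lyve1 lie close to or under the pseudocount of 1 FPKM, which flattens their profiles. Their nearest genes, Lbr (0.0782) for Cd163 and Actr3 (0.143) for Lyve1, are widely expressed and share mainly a small spread. The mean profile of the 8 genes was nearest to Plin2 (0.115), Cdkn1a (0.163), Rsad2 (0.182), Slc16a3 (0.182) and Mmp14 (0.210).

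**Figure D4:**
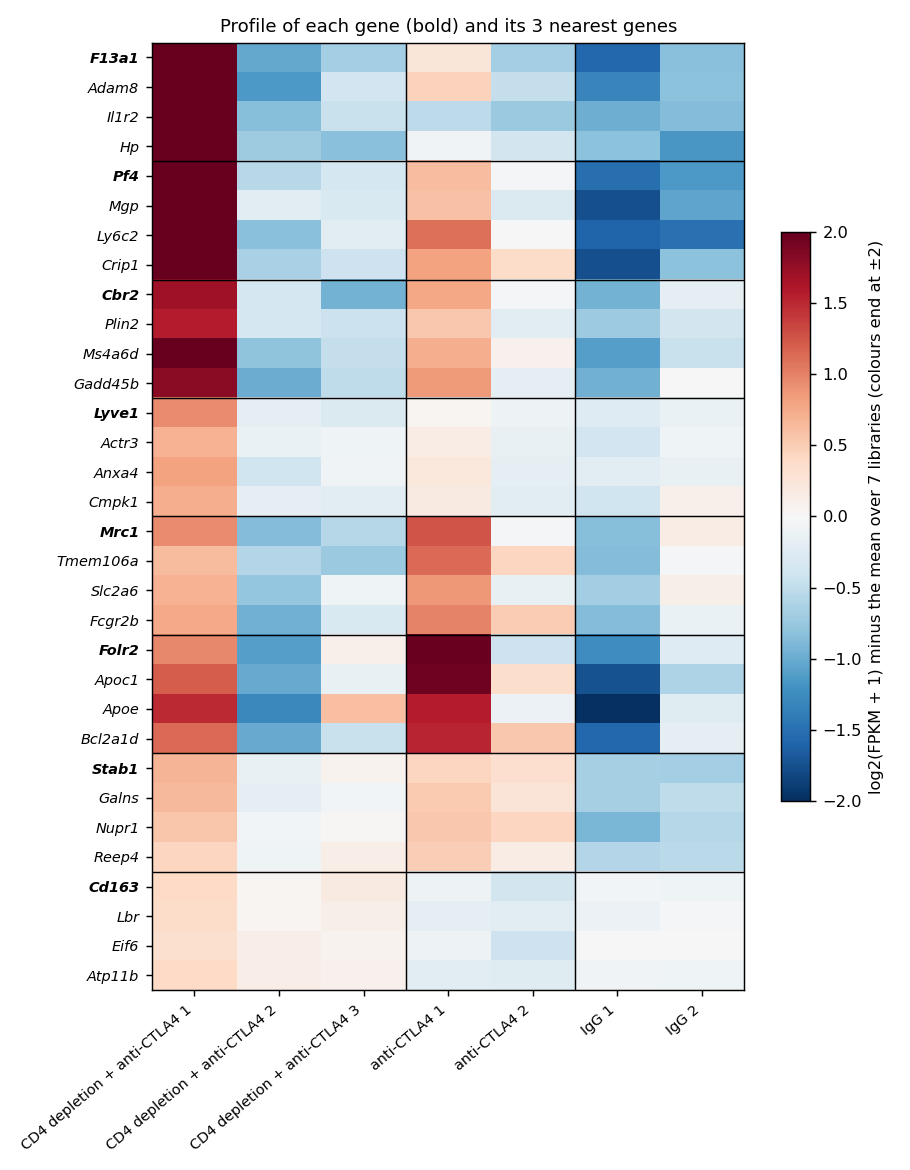
Centred log2(FPKM + 1) of the 8 genes (bold) and the 3 genes nearest to each, by library; colours end at a difference of 2. F13a1, Pf4 and their nearest genes are highest in CD4 depletion replicate 1, Mrc1 and Folr2 with theirs are also high in anti-CTLA4 replicate 1, and Stab1 with its nearest genes is low in both IgG libraries.

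Among the 8 genes themselves, Mrc1 lay closest to Cbr2 (root mean square difference 0.440) and Folr2 (0.457), the low Cd163 and Lyve1 apart. Pf4 lay closest to Cbr2 (0.688) and F13a1 (0.706). The widest difference between 2 members was that of Cd163 and F13a1 (1.78). The order of abundance within a library was led by Stab1 everywhere except CD4 depletion replicate 1, where F13a1 and Pf4 were above it.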

How the data were processed

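Per the submitters' processing notes, reads were processed with STAR, HOMER and DESeq2 on build mm10; versions are not given in the sources used here. The values are FPKM as deposited, which per the file headers the authors obtained with HOMER's counting over exons, 1 entry per gene, on both strands. DESeq2 results were not used here. Low values gave the depth: over transcripts of 200 to 800 nucleotides, 100% of the 268 to 302 values of up to 20 reads per library lay within 0.1 of whole reads. No count test was run, since FPKM is not a count. On the log2(FPKM + 1) scale, limma 3.58.1 (R 4.3.3, mean-variance trend) fitted the 3 groups together, so that all 7 libraries gave the spread. A gene entered when 2 or more libraries reached 1 FPKM, which left 13028. Two-sided p-values were adjusted by Benjamini-Hochberg over those genes, and calls were made at 0.05. An exact permutation test could not go below p = 0.333 with 2 libraries against 2 or 0.1 with 2 against 3, so only limma's values are given.

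The members and the 22 gene lists, of whose 411 entries 407 had a row, were chosen with earlier results of these data known. Genes named are the members, up to 4 per list and comparison with the smallest p among those past the threshold with a mean of at least 5 FPKM, the nearest 3 genes of each member and the nearest 5 of their mean, and a panel of markers. Prox1, Clec4g, Gp6, Gata1 and the untested border macrophage genes were named as defining markers, some after their values were seen. Maf was named outside these rules. Alternatives were a pseudocount of 0.1, no filter, median-of-ratios scaling, scaling to an equal mean of 30 homeostatic microglia markers, the label's replicate number as a block, and leaving out each library. The exchange of the IgG numbers in the block, and the alternatives for the lists, were chosen after seeing the data. Tests were checked on simulated data with 200 of 13028 genes changed. For anti-CTLA4 against IgG recovery was 24% at a log2 change of 1 and 89% at 2. These shares are for genes drawn at random, with fewer changed than the 38.0% called in the data. They do not give the recovery of the members, where Mrc1, Cbr2, Folr2, Pf4 and F13a1 had SEs of 0.68 to 1.67. Promoter windows are from RefSeq, overlapping genes from GENCODE M21, both on the same build. Overlaps were read from gene spans. Python 3.11.15 and matplotlib 3.10.9 were used for tables and figures. The header's command lists 40 libraries, and 33 of them have no column in the table used here.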

Additional observations from a re-analysis of the deposited data

How the results depend on the processing

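The count of members past the threshold in anti-CTLA4 against IgG was 1 higher and 0 lower, and it stayed so with a pseudocount of 0.1, without the filter and with median-of-ratios scaling. It was 0 higher and 1 lower (Cd163, -1.09, adjusted p = 0.0374) with equal homeostatic microglia markers, a scaling under which the median of all genes is -1.24 in place of -0.31. Leaving out a library gave 0 to 2 higher: 2 without CD4 depletion replicate 1 and 0 without any library labelled anti-CTLA4 or IgG. Those last fits left a group with 1 library, taken to vary as the rest do, and over all genes 0 were higher and 0 lower without IgG replicate 1 or anti-CTLA4 replicate 2. In CD4 depletion + anti-CTLA4 against anti-CTLA4 the scaling to homeostatic markers gave 1 higher (Cd163, tested only through CD4 depletion libraries) in place of 0. Against IgG, CD4 depletion + anti-CTLA4 gave 0 under every alternative run. All-gene calls for anti-CTLA4 against IgG were 1210 higher and 3747 lower, 2147 and 2045 with median-of-ratios scaling, and 49 and 8739 with homeostatic scaling. For CD4 depletion + anti-CTLA4 against anti-CTLA4 they were 2969 and 858, 1463 and 1650, and 9478 and 65, in the same order, and 1861 and 616 without the filter. Over the libraries left out, all-gene calls fell to 0, as above, and were 235 higher and 440 lower without IgG replicate 2 in anti-CTLA4 against IgG. In CD4 depletion + anti-CTLA4 against anti-CTLA4 they were 979 and 407 without CD4 depletion replicate 2, 668 and 249 without replicate 3, and 0 and 0 without anti-CTLA4 replicate 2.

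Signs that changed were all of fold changes not past the threshold. In CD4 depletion + anti-CTLA4 against anti-CTLA4, equal homeostatic markers gave 0.15 for Mrc1, 0.69 for Cbr2, 0.12 for Folr2 and 0.73 for Stab1. Over the libraries left out, Pf4 lay between -0.75 and 1.02 and F13a1 between -0.64 and 2.16, both lowest without CD4 depletion replicate 1. Cbr2 lay between -1.01 and 0.31, and Folr2 between -1.99 and 0.40. In CD4 depletion + anti-CTLA4 against IgG, Mrc1 lay between -0.36 and 0.69 and Cbr2 between -0.0804 and 1.24, both lowest without CD4 depletion replicate 1, and Mrc1 was -0.31 without IgG replicate 1. The cause was not tested.

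The labels' replicate numbers did not pair the libraries: deviations of same-numbered libraries correlated at -0.205 to 0.123. With the replicate block, 1 member was higher in anti-CTLA4 against IgG and 0 in the other comparisons, Cbr2 in CD4 depletion + anti-CTLA4 against anti-CTLA4 was 0.31, and all-gene calls were 597 higher and 2068 lower, and 0 and 0. With the IgG numbers exchanged in the replicate block, 3 members and 1085 genes were higher and 2732 genes lower in anti-CTLA4 against IgG. That exchange was chosen after the data were seen. It lines up the libraries of each group in which most members were highest, so its counts lend no support to a difference. Counting error matters most for Lyve1, with 4 implied reads in its lowest library, Folr2, with 23, and Cbr2, with 46, and the number of libraries limits every comparison.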

Other observations

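Among macrophage lineage regulators and genes of alternative activation, Spi1, which encodes PU.1, had 95.6, 66.3 and 67.1 FPKM in the CD4 depletion libraries, 131 and 130 FPKM in those labelled anti-CTLA4, and 47.6 and 57.3 FPKM in IgG, and it was higher in anti-CTLA4 against IgG (log2 fold change 1.30, SE 0.22, adjusted p = 0.0101). Of 17 tested lineage regulators 7 were higher and 1 lower in that comparison, beside 9.29% and 28.8% of all tested genes. With equal homeostatic microglia markers 0 were higher and 4 lower, where most of all tested genes were called lower. Maf, a factor of resident macrophages, is not among these 17 and was counted with the further border macrophage genes. Maf had 5.79, 8.66 and 6.51 FPKM under CD4 depletion, 11.96 and 12.68 FPKM under anti-CTLA4, and 7.95 and 5.83 FPKM under IgG. In anti-CTLA4 against IgG it had 0.77 (SE 0.23, limma adjusted p = 0.0337), and -0.16 with equal homeostatic microglia markers (limma adjusted p = 0.694). Il10ra, the interleukin-10 receptor gene, was higher under anti-CTLA4 than under IgG (1.83, SE 0.26, adjusted p = 0.00936) and lower under CD4 depletion than under anti-CTLA4 (-1.50, SE 0.23, adjusted p = 0.0124).

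CD4 depletion replicate 1 was also the highest library for 15 of 24 genes of alternative activation and the glucocorticoid response. Chil3, a chitinase-like protein of activated macrophages, had 486.8, 0.419 and 2.48 FPKM under CD4 depletion, 1.28 and 1.98 FPKM under anti-CTLA4, and 0.109 and 12.2 FPKM under IgG. Arg1, which encodes arginase, had 423.1, 2.59 and 17.4 FPKM under CD4 depletion, 13.6 and 1.92 FPKM under anti-CTLA4, and 2.15 and 86.4 FPKM under IgG. These 2 genes were named after their values were seen. Unlike most members, Arg1 and Chil3 were second highest in IgG replicate 2.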
